A study of Mus musculus with 4 samples.

Results

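The comparison described here sets long-term haematopoietic stem cells whose transplanted ancestors had received 0.5 Gy of γ-irradiation against those of the unirradiated control, 0 Gy, across genes. It rests on the log2 difference, 0.5 Gy minus 0 Gy, over the genes whose mean over the 4 arrays of the study reached 4.06, the median gene mean, on the log2 intensity scale. That filter kept 11593 of 23185 genes with a symbol, out of 25206 probe sets. It was described with all of these genes, and again over 11491 genes without the symbols that start with Igh, Igk or Igl.

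Mouse marrow cells selected as Lin- ckit+ Sca+ were given 0, 0.02, 0.1 or 0.5 Gy, then transplanted into mice that had themselves been lethally irradiated. At 6 months, long-term stem cells were sorted from the recipients' marrow as Lin- ckit+ Sca+ Flk2- CD48- CD150+. The 0 Gy group thus shares the transplantation and the irradiated host with the 0.5 Gy group and differs from it by the dose given to the donor cells. The labels name no genotype, strain or age. The gate as given holds no marker of donor origin, so cells of the host that survived conditioning are not set apart, and it is not stated whether RNA came from 1 mouse or from several. Each dose was measured on 1 array, so every value below is a difference between 2 arrays, without replicate error and without a test, and with so few arrays its precision is limited.

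Long-term haematopoietic stem cells are mostly resting cells that can rebuild all blood lineages for life. With age and after stress, this compartment is known to gain cells biased to the megakaryocyte and myeloid lineages, marked by genes such as Vwf, Selp and Clu. Ionising radiation breaks DNA and engages p53, whose target Cdkn1a halts the cell cycle.

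The transcripts of the sort markers had near-equal values on both arrays. Kit, the stem cell factor receptor of the gate, had 10.16, 10.57, 10.40 and 10.12 at 0, 0.02, 0.1 and 0.5 Gy, the order used for every series of 4 values below. Slamf1, which encodes CD150, had 7.67, 8.65, 7.16 and 7.77. Of the excluded receptors, Flt3, which encodes Flk2, had 4.46, 4.76, 5.44 and 4.76 and Cd48 had 4.13, 3.08, 4.11 and 4.13. The largest of these 4 differences between the 0.5 and 0 Gy arrays was that of Flt3, 0.30. Of 11 lineage markers, 8 were below the filter level on all 4 arrays. Kit and Slamf1 thus lay well above the filter level on both arrays and Flt3 and Cd48 near it, while immunoglobulin genes, described further on, were bright on the 0 Gy array. Ly6a, which encodes Sca, was not analysed here. In bulk RNA, fewer cells of a type and less RNA per cell cannot be told apart, and this applies to every lineage gene below.

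On the 0.5 Gy array 189 genes lay at least 2-fold above their 0 Gy values, which is 1.63% of the kept genes, and 349 were at least 2-fold lower, 3.01%. Without the symbols starting Igh, Igk or Igl these were 184 genes, 1.6%, and 289 genes, 2.52%. The median absolute difference was 0.18 in both sets, and 5% of genes exceeded 0.98, or 0.92 without those symbols. Those symbols took up 60 of the 349 lower genes and 50 of the 86 that were at least 4-fold lower. At least 4-fold higher were 27 genes, 3 of them with such symbols. Exactly equal values on both arrays were listed for 1605 kept genes, 13.8%. Without those symbols, 5.83% of genes whose mean lay between the filter level and 5 were at 2-fold or more in either direction, 6.68% of those between 5 and 6, 2.51% of those between 7 and 8, and 0.333% of those at 10 or more. For comparison, the 0.1 Gy array differed from the 0 Gy array by 2-fold or more at 495 kept genes and the 0.02 Gy array at 468, against 538 at 0.5 Gy. The 3 comparisons share the 0 Gy array.

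**Figure D1:**
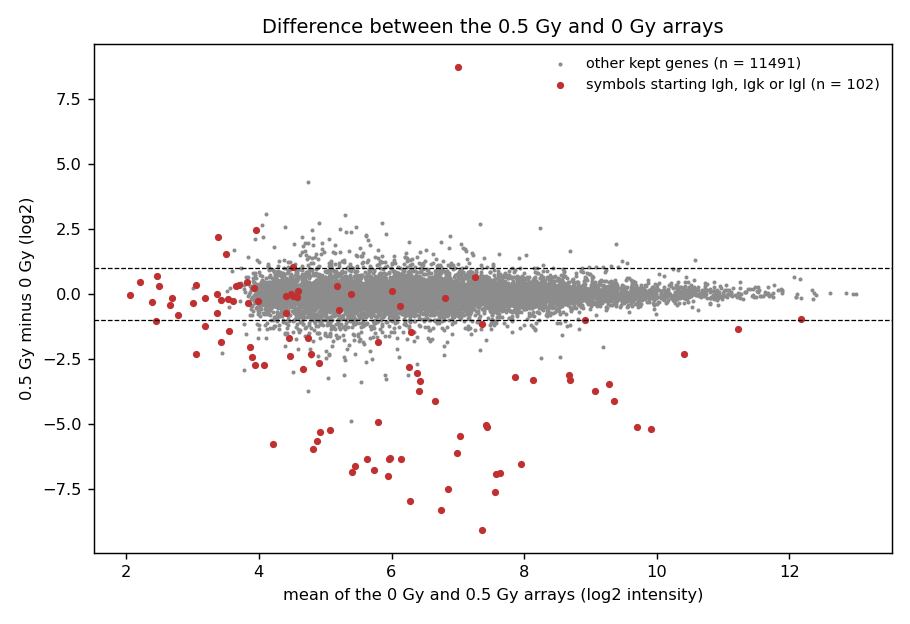
Log2 difference, 0.5 Gy minus 0 Gy, of each kept gene against the mean of both arrays (log2 intensity). Grey points are 11491 genes, red points 102 genes with symbols starting Igh, Igk or Igl, and dashed lines mark 2-fold. Most grey points lie between the lines, while red points reach below a difference of -8.

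The values of the 0.02 and 0.1 Gy arrays show on which side a difference lies. Of the 189 higher genes, both other arrays were nearer to 0.5 Gy in 62, nearer to 0 Gy in 69, and on different sides in 58. Among the 349 lower genes these numbers were 94, 112 and 143. The 0.5 Gy array stood at least 2-fold above each of the other 3 arrays at 37 genes, 0.319% of kept genes, and at least 2-fold below each at 72 genes, 0.621%. The 0 Gy array stood at least 2-fold above each of the other 3 at 53 genes, 0.457%, and below each at 39 genes, 0.336%. In the former genes the 0.5 Gy array was the odd one, and in the latter it was the control array.

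Genes that stood apart upward at 0.5 Gy included enzymes, trafficking proteins and a cytokine. Trappc2, a subunit of a vesicle tethering complex, had 4.48, 4.95, 4.1 and 7.22 and was 6.66-fold above 0 Gy. Il4, the type 2 cytokine, had 4.2, 4.2, 3.81 and 6.08. Creb3, a membrane-anchored transcription factor of the secretory pathway, had 5.63, 5.58, 5.63 and 7.23, with the other 3 arrays close together. Cyb561, a transmembrane cytochrome, was at 5.59 against at most 3.85 on the other arrays. Bloc1s5, a subunit of a complex that builds lysosome-related organelles, differed by 1.62, Pick1, a PDZ adaptor, by 1.41, Pgap3, which remodels GPI anchors, by 1.26 and Abhd18 by 1.63. Atp6v1g2, a subunit of the proton pump of lysosomes, differed by 1.92. At Cyb561, Abhd18 and Atp6v1g2 the 0 Gy value lay below the filter level, so that the size of the difference is uncertain.

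Downward, with immunoglobulin segments and constant regions set aside, the 0.5 Gy array stood furthest apart at H2-DMb2, a chaperone that loads class II molecules, with 7.83, 5.80, 5.06 and 2.95. Here both compared arrays stood apart, the 0 Gy array above and the 0.5 Gy array below both others. Ammecr1 had 6.95, 6.54, 6.54 and 4.46, Gpatch8 had 7.79, 8.35, 7.81 and 5.80 and Pacrgl had 6.49, 6.49, 6.49 and 5.01. In each of these 3 genes the 0.5 Gy array alone was low. The other arrays listed exactly equal values for Pacrgl, as did the 0.02 and 0.1 Gy arrays for Ammecr1. Why such values were equal was not tested, so they are not a measure of how closely arrays agree. For Gpatch8 the 0.02 Gy array lay above the 0 and 0.1 Gy arrays. Kif3a, a motor of the cilium, differed by -1.34, Tab1, a partner of the kinase TAK1, by -1.66, Rsph9, a ciliary spoke protein, by -2.36 and Cd248, a stromal surface protein, by -2.55. Klf12, a transcriptional repressor, had 6.21, 5.30, 4.99 and 3.90, with the 0.5 Gy array again the lowest. At H2-DMb2, Rsph9, Cd248 and Klf12 the 0.5 Gy value lay below the filter level, so that the size of the difference is uncertain.

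Genes at which the 0 Gy array was the one apart included Nipa1, a magnesium transporter, with 7.55, 4.79, 4.88 and 4.30, and Slc17a8, a vesicular glutamate transporter, with 6.60, 4.25, 4.41 and 4.30. Sox18, an endothelial transcription factor, had 6.35, 3.91, 4.38 and 4.38 and Cox7a1, a subunit of cytochrome oxidase, 5.77, 3.93, 4.07 and 4.07. All 3 irradiated arrays were low for these genes. In the other direction Pcp4l1 had 5.99, 8.0, 7.61 and 7.73, and Mcur1, which regulates calcium uptake by mitochondria, 6.20, 7.61, 7.51 and 7.96, with the 0 Gy array lowest. At Tmem243 and Lrmda the 3 irradiated arrays were nearly equal, and the differences from 0 Gy were 1.48 and 1.30. For Lrmda the 0.02 and 0.5 Gy arrays listed exactly the same value. At both genes the 0 Gy value lay below the filter level, so that the size of the difference is uncertain.

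Genes of sterol synthesis were higher at 0.5 Gy than at 0 Gy, and most of them higher than on every other array. The enzymes turn acetyl-CoA into mevalonate, then into isoprenoid units, squalene, lanosterol and cholesterol, and their genes are known targets of the factor SREBP2, which works with the CCAAT-binding factor NF-Y at many of their promoters. Of 17 enzymes measured and kept, 5 lay 1.5-fold or more above 0 Gy and 0 below, against 5.92% of kept genes higher and 8.25% lower. Their median difference was 0.35, where the median over all kept genes was 0.00, and 16 of 17 differences were above 0. The 0.5 Gy array was the highest of the 4, with no tie, at 10 of the 17 enzymes and at 20.8% of kept genes, and it was the lowest at 0 enzymes and at 23.8% of kept genes. With the mean of the other 3 arrays as the reference, the median was 0.40 and 5 enzymes were again at least 1.5-fold higher.

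The promoters of the enzyme genes are shown because these genes were high together. RefSeq promoters (GRCm38.p6, 250 bases before the start to 50 after it) matched 14 of the 17 genes, 17 promoters in all, and were searched on both strands for TCACNCCAC, the core of a sterol element, and for CCAAT. The letters CCAAT were found in 14 of these 17 promoters, at least 1 for each of the 14 genes, and in 37.4% of 32851 promoters of that length. Among kept genes with a promoter in the table, 42.7% had the letters. The sterol core was found in 1 gene, Hmgcs1, at 137 bases before the start, and in 1.24% of all promoters. The 2 motifs do not overlap in the sequences below, in which capitals mark every match of either.
Hmgcs1, chr13:119690101-119690400, strand +: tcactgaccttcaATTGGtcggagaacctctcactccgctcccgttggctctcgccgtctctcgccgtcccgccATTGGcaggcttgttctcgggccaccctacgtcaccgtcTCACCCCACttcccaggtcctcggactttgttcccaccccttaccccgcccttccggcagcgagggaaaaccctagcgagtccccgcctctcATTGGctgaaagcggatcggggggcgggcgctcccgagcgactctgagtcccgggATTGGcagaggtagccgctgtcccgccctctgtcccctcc
Idi1, chr13:8885356-8885655, strand +: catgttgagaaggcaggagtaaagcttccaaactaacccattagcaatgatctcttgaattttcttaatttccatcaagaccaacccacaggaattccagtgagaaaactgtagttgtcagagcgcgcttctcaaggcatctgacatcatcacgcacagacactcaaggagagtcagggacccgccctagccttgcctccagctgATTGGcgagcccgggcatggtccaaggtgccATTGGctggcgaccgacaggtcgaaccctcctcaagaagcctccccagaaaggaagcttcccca
Msmo1, chr8:64733529-64733828, strand -: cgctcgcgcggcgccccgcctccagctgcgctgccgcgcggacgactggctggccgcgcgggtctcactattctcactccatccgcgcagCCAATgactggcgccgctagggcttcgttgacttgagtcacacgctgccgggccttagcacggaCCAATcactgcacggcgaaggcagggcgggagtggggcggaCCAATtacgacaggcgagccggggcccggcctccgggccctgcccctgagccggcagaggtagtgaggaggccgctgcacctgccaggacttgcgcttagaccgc
Hsd17b7, chr1:169969156-169969455, strand -: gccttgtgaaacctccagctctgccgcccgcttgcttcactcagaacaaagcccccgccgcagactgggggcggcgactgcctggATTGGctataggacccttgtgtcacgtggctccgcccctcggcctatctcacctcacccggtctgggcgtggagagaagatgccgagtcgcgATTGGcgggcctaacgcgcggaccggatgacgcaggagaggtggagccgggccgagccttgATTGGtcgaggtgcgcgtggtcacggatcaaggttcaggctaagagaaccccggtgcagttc
The longest run of capitals in Hmgcs1 is the sterol core, and all other capitals are CCAAT or its complement ATTGG. A match is a description of these letters, and binding was not measured.

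Along the pathway, Hmgcs1, which makes the precursor of mevalonate, had 6.60, 6.60, 6.60 and 7.32, so that 3 arrays listed the same value and the 0.5 Gy array lay 1.64-fold above them. Mvk, mevalonate kinase, had 4.87, 5.03, 4.95 and 5.25 and Mvd, the decarboxylase that closes the mevalonate branch, 4.38, 4.45, 4.07 and 5.40. Idi1, which interconverts the isoprenoid units, had 4.79, 4.34, 4.34 and 6.35, the largest difference of the list at 1.56, or 2.96-fold. At each of these 4 steps the 0.5 Gy array was the highest of the 4. Fdps, farnesyl diphosphate synthase, had 4.65, 3.81, 5.28 and 4.91 and was highest at 0.1 Gy. Fdft1, squalene synthase, differed by 0.34, Sqle, squalene epoxidase, by 0.09 and Lss, lanosterol synthase, by 0.00. After lanosterol, Msmo1, a sterol methyl oxidase, had 6.16, 6.34, 6.48 and 7.25 and Hsd17b7, a sterol ketone reductase, 4.19, 4.40, 5.04 and 5.38. Cyp51, the lanosterol demethylase, differed by 0.34, Ebp, a sterol isomerase, by 0.55 and Sc5d, a desaturase, by 0.35. All 3 had their highest value at 0.5 Gy. At 0 Gy, Idi1, Mvd and Hsd17b7 lay below 5, not far above the filter level, so that the size of their differences is uncertain. Dim genes also passed 2-fold more often than bright ones.

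**Figure D2:**
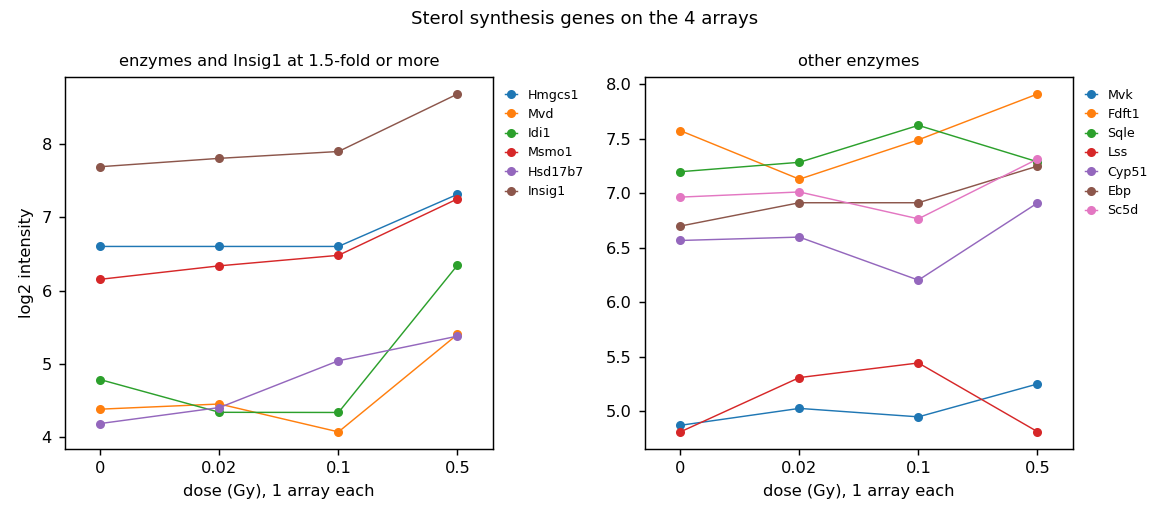
Log2 intensities of sterol synthesis genes on the 4 arrays, 1 array per dose, joined by lines only to guide the eye. In the left panel all 6 genes are highest at 0.5 Gy, with differences from 0 Gy between 0.71 (Hmgcs1) and 1.56 (Idi1). In the right panel Mvk, Fdft1, Cyp51, Ebp and Sc5d are also highest there, and Sqle and Lss are not.

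Among 19 kept genes of sterol sensing, uptake and efflux, 1 was at least 1.5-fold higher, 2 lower (list median 0.00). The 1 was Insig1, which retains the SREBP escort protein in the endoplasmic reticulum and is itself induced by SREBP, with 7.69, 7.81, 7.90 and 8.69. The factors themselves were nearly equal on both arrays: Srebf2 had 9.29, 9.29, 9.39 and 9.29, Srebf1 6.61, 6.61, 6.61 and 6.66 and their escort Scap 7.97 on each of the 4 arrays. Osbpl2, an oxysterol-binding lipid transfer protein, was lower, with 7.08, 6.62, 6.79 and 5.61, and Lpl, lipoprotein lipase, had 5.24, 4.56, 4.36 and 4.1. Genes of fatty acid synthesis and oxidation did not share the direction of the sterol enzymes. Of 25 kept, 1 was at least 1.5-fold higher and 4 lower (list median -0.07). Among the lower ones were Acaca, acetyl-CoA carboxylase, Elovl6, a fatty acid elongase, with a difference of -0.62, and Acsl4, an acyl-CoA synthetase, with -0.67.

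Genes used to define long-term stem cells were lower at 0.5 Gy more often than higher. Of 36 genes of the stem cell signature, all kept, 12 were at least 1.5-fold lower, against 8.25% of kept genes, and 1 higher, against 5.92% (list median -0.36). These shares over all kept genes are the background for each list count at 1.5-fold in the paragraphs that follow. All gene lists, those of sterol genes included, were chosen with earlier results of these data known. A list count above the background is therefore a description only. Neo1, the netrin receptor neogenin, had 7.47, 6.38, 4.61 and 4.35 and was 8.7-fold lower at 0.5 Gy, where the 0.1 Gy array was nearly as low. Rarb, a retinoic acid receptor, had 6.91, 6.35, 4.46 and 4.31, in the same order of arrays. Mycn, a MYC family factor, had 7.83, 7.62, 6.49 and 6.49, Ehd3, an endocytic ATPase, 6.88, 7.43, 6.50 and 5.64 and Gda, guanine deaminase, 8.13, 8.90, 6.37 and 7.02. Abcb1a, a drug efflux pump, had 5.60, 5.71, 5.58 and 4.61 and Tcf15 6.50, 6.56, 6.56 and 5.64, and at both of these genes the 0.5 Gy array alone was low. Procr, the surface receptor EPCR that marks stem cells, was the 1 member in the other direction, with 6.79, 8.17, 7.09 and 7.64. The 0.5 Gy array was the lowest of the 4 at 12 of the 36 genes, against 23.8% of kept genes. With the mean of the 0 and 0.1 Gy arrays as reference the median was -0.05 and 7 members were lower, the 0.1 Gy array being low at Neo1, Rarb, Mycn, Vwf and Gda as well.

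Genes known to be higher in stem cells of old mice were lower as well, and by more. Of 36 measured, 31 were kept, and 17 of these were at least 1.5-fold lower and 1 higher (list median -0.72, or -0.57 over all 36). Selp, the adhesion molecule P-selectin, had 8.12, 8.69, 6.97 and 6.99, Clu, the secreted chaperone clusterin, 8.54, 8.90, 6.50 and 7.09 and Vwf, von Willebrand factor, 8.58, 8.98, 7.14 and 7.28. For these genes the 0.1 and 0.5 Gy arrays were both low, and the 0 and 0.02 Gy arrays high. Jam2, a junctional adhesion molecule, had 6.62, 7.54, 4.30 and 4.94, and Klhl4 had 5.64, 6.65, 4.84 and 3.53. Mt2, a metallothionein, had 9.50, 8.80, 8.06 and 8.14 and Gstm2, a glutathione transferase, 9.05, 8.72, 7.14 and 7.94. The 0.5 Gy array was the lowest at 6 of 31 members, so at most of them another array was as low or lower, and 5 members were at least 1.5-fold lower against the mean of the 0 and 0.1 Gy arrays. The signature and the old-cell list share members, among them Neo1, Vwf, Ehd3 and Procr.

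Platelet genes were lower in part, among them some that also mark old stem cells. Of 27 measured, 21 were kept, 8 were at least 1.5-fold lower, against 8.25% of kept genes, and 0 higher (list median -0.16). The median was 0.00 with either of the other references. Beside Clu, Vwf and Selp, the platelet lipoxygenase Alox12 had 5.35, 4.11, 4.35 and 4.05, the adhesion receptor subunit Gp1bb 7.50, 6.54, 6.30 and 6.43 and the ATP receptor P2rx1 6.29, 6.15, 6.18 and 5.55. Itga2b, the platelet integrin, differed by 0.19 and Gp5, a platelet glycoprotein, by 0.58, so that both lay above their 0 Gy values. The 4 megakaryocyte markers were all kept, with 0 past 1.5-fold in either direction.

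The transcription factors that hold the stem cell state were close to equal. Of 33 measured, 32 were kept, 2 were at least 1.5-fold higher and 1 lower (list median 0.03). The 1 lower factor was Bmi1, a Polycomb protein needed for self-renewal, with 6.55, 5.78, 6.32 and 5.59. Nr4a1, an orphan nuclear receptor that restrains division of stem cells, had 9.65, 10.72, 9.97 and 10.42 and Tcf3, an E protein, 8.45, 8.50, 9.14 and 9.13. Runx1 differed by 0.28, Spi1, which encodes PU.1, by 0.34 and Kmt2a by -0.39.

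Several Hox genes, which are active in stem cells and shut down as they differentiate, were lower at 0.5 Gy, together with the Hox cofactor Pbx3. Of 42 measured in this list, 20 were kept, of which 6 were at least 1.5-fold lower and 0 higher (list median -0.24, or -0.01 over all 42). Pbx3 had 7.32, 6.79, 6.26 and 4.89 and was 5.37-fold lower. Within the B cluster, Hoxb8 had 6.03, 5.53, 4.02 and 4.2, Hoxb6 5.83, 6.60, 5.11 and 4.31, Hoxb3 4.96, 5.82, 4.38 and 3.26 and Hoxb2 4.86, 5.12, 3.91 and 4.02. From the A cluster Hoxa5 had 6.29, 6.72, 6.26 and 5.54. Of the 4 arrays, 0.5 Gy was the lowest at 10 of the 20 kept members, and 7 were at least 1.5-fold lower against the mean of the other 3 arrays. Hoxb8 and Hoxb2 were lowest at 0.1 Gy instead. Hoxb3 and Hoxb2 lay below the filter level on the 0.5 Gy array, which leaves the size of their differences uncertain.

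Several red cell genes were higher at 0.5 Gy, most of them genes of the membrane. Of 23 red cell membrane genes measured, 20 were kept, 8 were at least 1.5-fold higher and 1 lower (list median 0.10). Car1, a carbonic anhydrase of red cells, had 8.42, 7.59, 9.77 and 10.34 and was 3.79-fold higher. Rhd, the Rh blood group protein, had 4.54, 4.71, 5.57 and 6.19, Cldn13, a claudin of erythroid cells, 4.35, 4.88, 5.26 and 5.94 and Ermap, an erythroid adhesion protein, 4.67, 4.89, 6.13 and 5.74. Aqp1, a water channel, had 6.57, 6.83, 7.08 and 7.55 and Tspan33, a tetraspanin, 4.39, 4.88, 3.88 and 5.34. Apart from Ermap, each of these genes was highest at 0.5 Gy. Kel, the Kell blood group protein, was not kept by the filter and had 3.14, 3.48, 3.59 and 5.08. The 1 lower member was Xk, the partner of Kell, which differed by -0.63.

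Of 20 erythroid regulators, all kept, 3 were at least 1.5-fold higher and 1 lower (list median 0.03). The higher ones were Klf1, the erythroid Krüppel-like factor, with 5.46, 4.9, 6.84 and 6.64, Gata1 with 7.72, 7.33, 8.10 and 8.84, and the transferrin receptor Tfrc with 6.51, 6.79, 7.16 and 7.16. Trim58, a ubiquitin ligase of late red cell precursors, was the lower one, with 5.87, 4.88, 5.28 and 4.86. For haem synthesis and globins 15 of 20 measured were kept, 2 were higher and 0 lower (list median 0.18). These were Slc25a38, the mitochondrial glycine carrier, with 4.1, 5.20, 5.26 and 5.50 and the beta globin Hbb-b1 with 8.59, 8.22, 7.51 and 9.25, whose probes may also bind other beta globins. Alas2, the first enzyme of haem synthesis in red cells, stayed below the filter level on all 4 arrays, with 2.57 at 0 Gy and 2.62 at 0.5 Gy. Klf1 and Ermap were at least as high at 0.1 Gy as at 0.5 Gy, while Gata1, Car1, Rhd and Cldn13 were highest at 0.5 Gy.

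**Figure D3:**
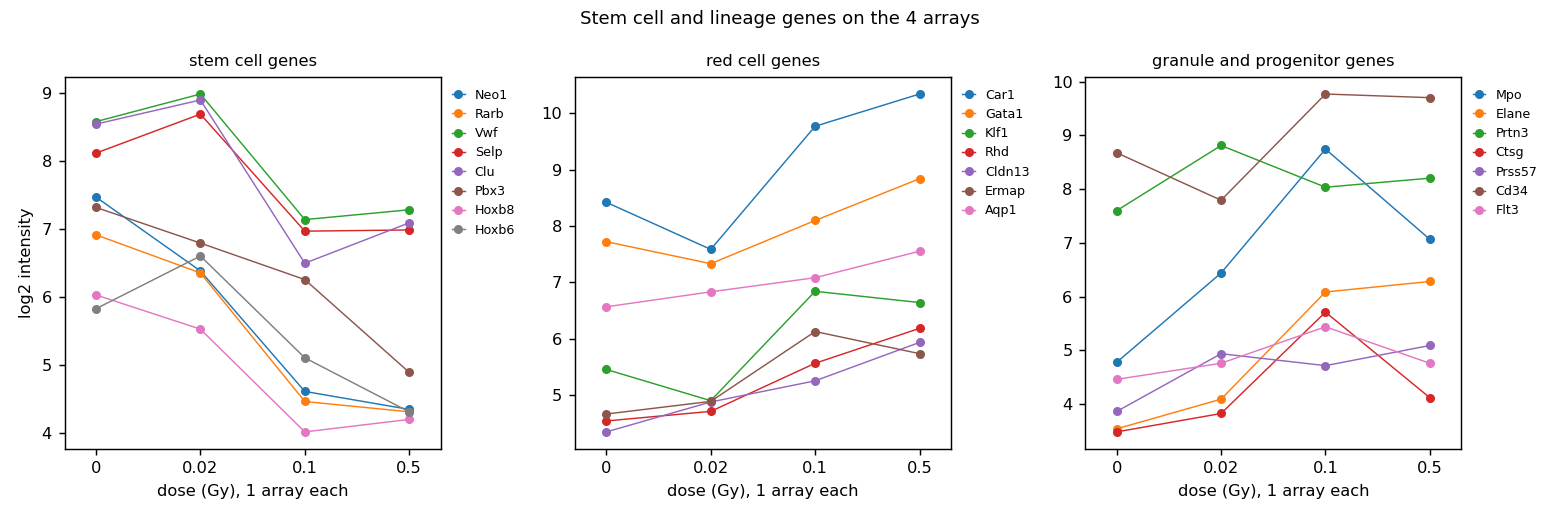
Log2 intensities of stem cell genes (left), red cell genes (middle) and granule and progenitor genes (right) on the 4 arrays, 1 array per dose, with lines only to guide the eye. The stem cell genes shown differ between 0.5 and 0 Gy by -1.13 (Selp) to -3.12 (Neo1), and the red cell genes by 0.99 (Aqp1) to 1.92 (Car1).

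Genes of neutrophil granules and their progenitors were in part higher at 0.5 Gy than at 0 Gy, and some were higher again at 0.1 Gy. Of 30 measured, 16 were kept, 7 were at least 1.5-fold higher and 3 lower (list median 0.48, or 0.18 over all 30). Mpo, myeloperoxidase, had 4.78, 6.44, 8.75 and 7.07 and Elane, neutrophil elastase, 3.54, 4.09, 6.09 and 6.28. Both were lowest at 0 Gy, and Mpo was highest at 0.1 Gy. Prss57, a serine protease of neutrophil granules, had 3.86, 4.94, 4.71 and 5.09, Prtn3, proteinase 3, 7.60, 8.81, 8.04 and 8.21 and S100a8, a subunit of calprotectin, 3.89, 2.81, 6.54 and 4.88. In the other direction Hp, haptoglobin, had 5.34, 3.82, 4.50 and 3.87 and Padi4, an arginine deiminase of neutrophils, 6.28, 6.43, 6.39 and 5.42. Ly6g, the surface marker of mature neutrophils, was below the filter level except at 0.5 Gy, with 2.65, 2.81, 2.58 and 4.35. At Elane, Prss57 and S100a8 the 0 Gy value, and at Hp the 0.5 Gy value, lay below the filter level. The size of these differences is uncertain. Over the 11 members with both arrays at or above that level, the list median was 0.27. Against the mean of the other 3 arrays the median of the list was 0.06 and 3 members were higher. Of 22 genes of multipotent progenitors, 13 were kept, 4 were higher and 1 lower (list median 0.27, or 0.01 over all 22). The direction did not hold with other references, the median being -0.04 against the mean of the other 3 arrays and -0.01 against the mean of the 0 and 0.1 Gy arrays. Cd34 had 8.68, 7.79, 9.77 and 9.70, so that the 0.1 and 0.5 Gy arrays were high, and Cd27 had 8.63, 8.75, 8.77 and 9.24.

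Genes of other myeloid cells were mostly below the filter level. Of 24 genes of eosinophils, basophils and mast cells, 5 were kept, of which 3 were higher and 1 lower. Prg2, the major basic protein of eosinophils, had 6.83, 8.58, 5.36 and 3.73, while Cpa3, the mast cell carboxypeptidase, had 3.75, 4.17, 4.95 and 4.66 and Lat2, an adaptor of mast cells and B cells, 5.40, 5.21, 6.12 and 6.42. Of 33 genes of monocytes, macrophages and dendritic cells, 7 were kept, 0 were higher and 3 lower. Slpi, a protease inhibitor, had 9.49, 11.56, 6.48 and 7.03, Ly6c2, the monocyte marker, 6.28, 8.18, 6.83 and 4.72 and the costimulator Cd86 5.04, 4.52, 4.62 and 4.0. The 0.02 Gy array was the highest for Prg2, Slpi and Ly6c2. All 5 dendritic cell markers were below the filter level on every array.

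Immunoglobulin genes gave the largest differences of the comparison, all constant regions kept by the filter being lower at 0.5 Gy. Of 8 constant region genes measured, 6 were kept and all 6 were lower by 1.5-fold or more (list median -5.30, or -2.54 over all 8). The filter used the mean over all 4 arrays. A constant region kept through a high 0 Gy value is thus more likely to be lower at 0.5 Gy. The IgG genes Ighg2c, Ighg1 and Ighg2b, close paralogues that probes may not tell apart, had 11.36, 12.33, 4.21 and 3.75, then 11.04, 12.55, 3.06 and 4.12, then 11.07, 12.12, 3.73 and 4.2. They were bright on the 0 and 0.02 Gy arrays and near or below the filter level on the 0.1 and 0.5 Gy arrays. Ighm, the constant region of IgM, had 10.93, 11.20, 11.35 and 7.21 and was low at 0.5 Gy alone. Igha, of IgA, had 11.90, 12.47, 10.91 and 10.55 and Igkc, of the kappa light chain, 12.66, 12.83, 12.29 and 11.70, so that both were still bright at 0.5 Gy.

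Among variable segments the 0.02 Gy array held the most bright genes and the 0.5 Gy array the fewest. Of 185 measured, the number with a log2 value of 8 or more was 27 on the 0 Gy array, 86 on the 0.02, 11 on the 0.1 and 2 on the 0.5 Gy array. Of the 89 kept, 51 lay at least 2-fold below 0 Gy on the 0.5 Gy array and 5 above, with differences from -9.07 to 8.72 and a median of -1.70. The 5 higher segments were all kappa segments. The filter used the mean over all 4 arrays, so a segment bright on the 0 Gy or the 0.02 Gy array alone can be among the 89. A segment kept through a high 0 Gy value is more likely to be lower at 0.5 Gy.

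Other genes of antibody-secreting cells were lower in part. Of 22 plasma cell genes other than immunoglobulins, 20 were kept, 4 were at least 1.5-fold lower and 0 higher (list median -0.12). Jchain, which joins IgA and IgM units, had 9.75, 10.69, 8.46 and 7.32, Mzb1, a chaperone of plasma cells, 6.23, 7.60, 5.24 and 3.78 and Pou2af1, a B cell coactivator, 5.98, 7.03, 4.12 and 3.58. Txndc5, a disulfide isomerase, had 8.60, 8.66, 7.50 and 7.39. All 4 were lowest at 0.5 Gy and highest at 0.02 Gy. At Mzb1 and Pou2af1 the 0.5 Gy value lay below the filter level, so that the size of the difference is uncertain. Sdc1, the surface marker of plasma cells, differed by -0.45 and Xbp1, the factor that drives secretion, by -0.09. The 5 plasma cell markers had summed log2 values of 22.3, 27.7, 20.6 and 19.3 on the 4 arrays, and the 4 B cell markers 18.0, 21.7, 18.0 and 16.6. The part of such cells in these differences was not tested.

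**Figure D4:**
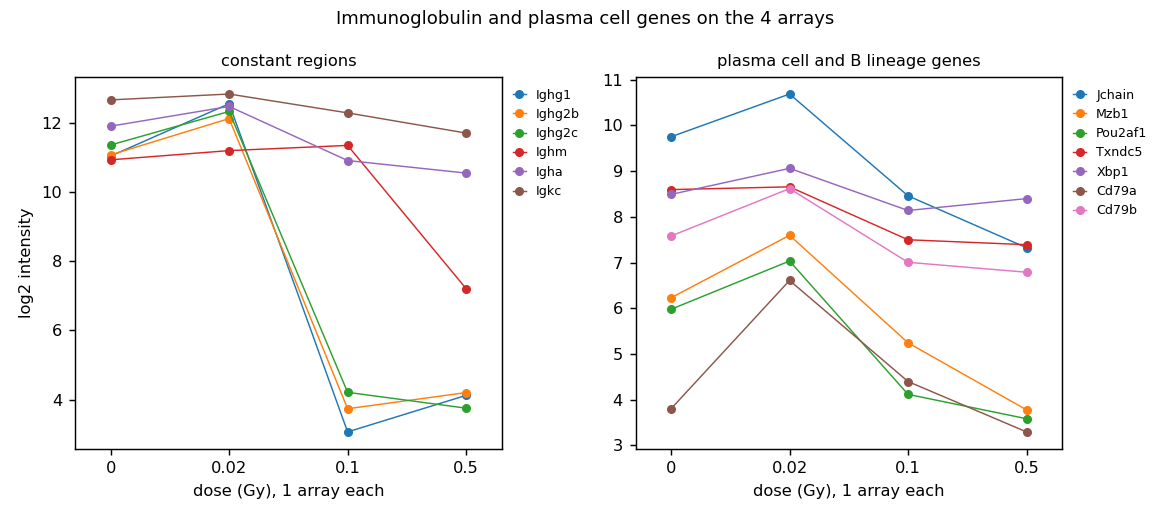
Log2 intensities of immunoglobulin constant regions (left) and of plasma cell and B lineage genes (right) on the 4 arrays, 1 array per dose, with lines only to guide the eye. The 3 IgG genes lie above 11 at 0 and 0.02 Gy and at 3.75 to 4.2 at 0.5 Gy, and Ighm is low at 0.5 Gy alone.

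Interferon-stimulated genes were slightly lower at 0.5 Gy across the list. Of 53 measured, 48 were kept, 8 were at least 1.5-fold lower and 1 higher, and 40 of 48 differences were below 0, with a median of -0.27. Isg15, a ubiquitin-like modifier, had 4.57, 4.1, 4.9 and 3.05. The GTPases Irgm2 and Iigp1 had 8.36, 7.57, 6.97 and 7.12 and 8.11, 8.0, 6.70 and 7.05, and Cmpk2, a mitochondrial nucleotide kinase, 6.77, 5.81, 5.71 and 5.63. Apart from Isg15, these were also low at 0.1 Gy, and against the mean of the other 3 arrays the median of the list was -0.10 with 1 member lower. The 1 higher gene was Trim30a, with 6.58, 7.14, 6.91 and 7.44. Of the GIMAP family of immune GTPases, 7 of 8 were kept and 6 of the 7 differed in the lower direction, with a median of -0.51. Only Gimap4 passed 1.5-fold, with 7.81, 5.92, 4.05 and 4.69, the 0 Gy array being the highest.

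In class II antigen presentation 16 of 20 measured genes were kept, 2 were higher and 3 lower at 1.5-fold, with a median of -0.16 that turned to 0.07 against the mean of the other 3 arrays and to 0.02 against the mean of the 0 and 0.1 Gy arrays. Beside H2-DMb2 and Cd86, the invariant chain Cd74 had 9.94, 9.68, 7.87 and 9.23 and was lowest at 0.1 Gy. The class II chain H2-Ab1 differed by -0.15 and the transactivator Ciita by -0.19. For class I, 24 of 30 were kept, 1 was higher and 0 lower.

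Among genes of non-blood cells, few marrow stromal genes were kept by the filter, and a larger share of the endothelial genes. Of 26 marrow stromal genes, 7 were kept and 5 of these were at least 1.5-fold lower at 0.5 Gy, with a median of -0.82, or 0.00 over all 26. They were the chemokines Ccl19 with 6.78, 5.18, 4.55 and 4.57, Cx3cl1 with 6.71, 4.66, 5.05 and 5.08 and Cxcl12 with 5.36, 4.53, 4.53 and 4.54, the protease inhibitor Timp3 with 9.30, 6.55, 9.16 and 8.10 and the matrix protein Sparc with 5.30, 4.62, 5.13 and 4.64. Ccl19, Cx3cl1 and Cxcl12 were high on the 0 Gy array alone. The collagen gene Col1a1 was below the filter level on all 4 arrays, with 3.33 at 0 Gy and 3.47 at 0.5 Gy. Of 29 endothelial genes 13 were kept, 3 were lower and 0 higher (list median -0.29). These were Sox18, Vwf and Ramp2, a receptor-modifying protein, which had 5.03, 5.86, 3.63 and 4.04. Pecam1, which stem cells also carry, differed by -0.45. The part of such cells in the differences was not tested.

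**Figure D5:**
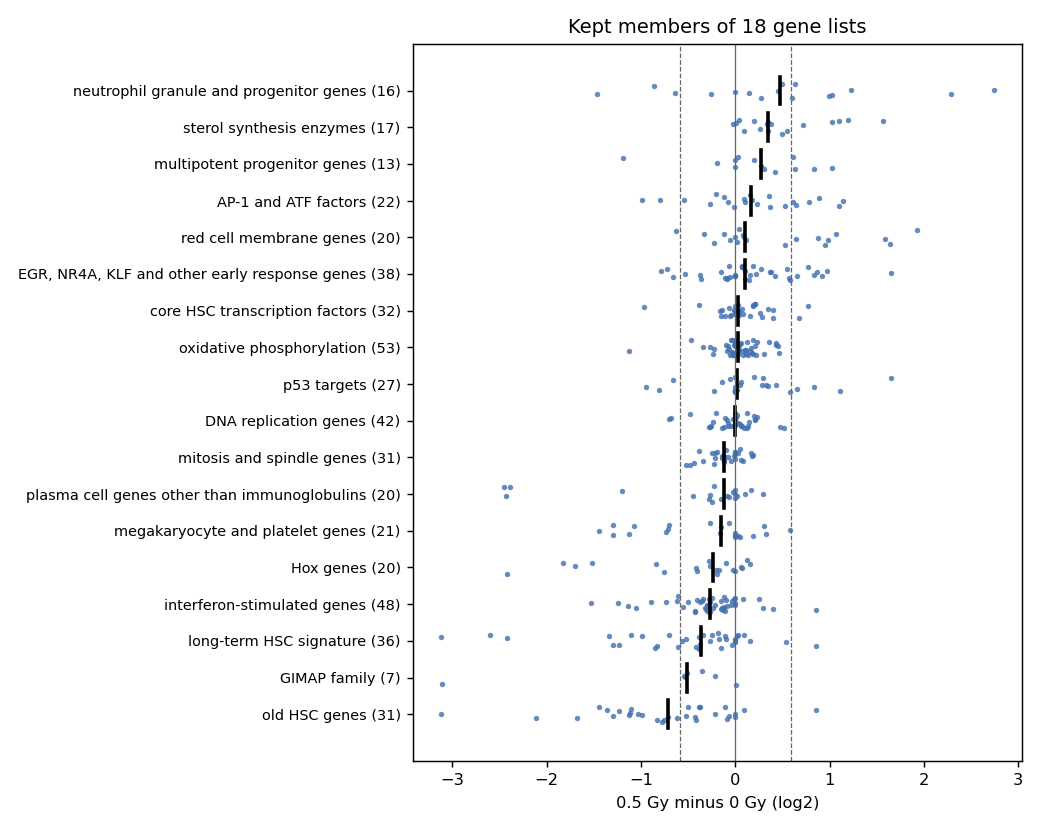
Log2 difference, 0.5 Gy minus 0 Gy, of the kept members (points, number in brackets) of 18 gene lists, with the median of each list as a black bar and dashed lines at 1.5-fold. The lists run from old HSC genes, with a median of -0.72, to neutrophil granule and progenitor genes, with 0.48, and the sterol enzymes lie with nearly all points above 0.

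Genes that respond to stimuli within minutes were higher at 0.5 Gy in part, and the 6 higher ones given here lay above 0 Gy on the other irradiated arrays too. Of 24 AP-1 and ATF factors, 22 were kept, 6 were at least 1.5-fold higher and 2 lower (list median 0.17). Atf3 had 6.81, 7.31, 7.77 and 7.91, Ddit3, the stress factor CHOP, 6.43, 7.40, 7.81 and 7.57 and Fosb 7.85, 8.70, 9.25 and 8.74. Batf had 7.21, 7.21, 7.06 and 6.22 and Fosl1 5.22, 5.39, 5.47 and 4.42, both low at 0.5 Gy alone. Of 38 kept EGR, NR4A, KLF and related genes, 7 were higher and 3 lower (list median 0.10). Klf6 had 8.39, 8.88, 9.27 and 9.36, Klf4 6.28, 7.29, 6.36 and 7.15 and Ppp1r15a, a regulator of the stress-induced stop of translation, 8.78, 9.36, 9.40 and 9.70. Egr2 had 4.46, 6.30, 4.25 and 3.68 and Egr3 5.04, 6.23, 5.04 and 4.32, both lowest at 0.5 Gy and highest at 0.02 Gy. Against the mean of the other 3 arrays, 1 member of each of these lists was at 1.5-fold or more higher.

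MAP kinase phosphatases, feedback regulators of ERK signalling and kinases of the p38 pathway, counted together, went in opposite directions. Of 26 measured, 23 were kept, 4 were at least 1.5-fold higher and 6 lower (list median 0.00). Lower were Etv5, an ERK-induced transcription factor, with 9.37, 8.84, 9.13 and 7.79, and Spred2, an inhibitor of RAS signalling, with 8.77, 8.74, 9.01 and 7.50. At both the 0.5 Gy array was the lowest by more than 2-fold. Dusp16, a phosphatase of JNK and p38, had 5.68, 5.50, 5.46 and 4.78 and Spry4, a RAS pathway inhibitor, 5.56, 4.65, 4.71 and 4.71. Higher were the ERK phosphatases Dusp5 with 5.41, 6.98, 5.86 and 6.61 and Dusp6 with 8.19, 8.45, 8.74 and 8.91. Dusp6 had its highest value of the 4 at 0.5 Gy, and Dusp5 at 0.02 Gy.

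Single regulators of cytokine and growth factor signals were among the largest differences. Socs3, which silences cytokine receptors, had 4.50, 7.53, 5.49 and 6.72 and Osm, the cytokine oncostatin M, 4.14, 5.34, 5.85 and 5.55, while Socs6 had 6.52, 6.14, 5.96 and 5.52. Of 26 genes of the SOCS, STAT, PIM and JAK families and related regulators, Osm included, 3 were at least 1.5-fold higher and 2 lower. Il10rb, a shared chain of interleukin-10 family receptors, had 4.95, 5.99, 6.91 and 6.64, against 2 higher and 2 lower among 27 kept receptors of its list. Among TGF-beta, BMP and ID genes 23 of 36 were kept, 5 were higher and 2 lower. Id3, an inhibitor of E proteins, had 4.48, 5.74, 7.04 and 6.74 and Id1 4.68, 6.46, 4.67 and 5.47, while Id2 had 5.82, 5.76, 4.72 and 5.01. Smad7, an inhibitor of TGF-beta receptors, had 7.41, 8.29, 7.94 and 8.31. In the Notch and WNT pathways Hes1, a Notch target, had 6.42, 7.79, 7.58 and 8.0, while Rbpj, the DNA-binding partner of Notch, had 4.91, 3.95, 4.09 and 3.71 and Sfrp1, a WNT antagonist, 5.12, 5.34, 4.38 and 4.23. In this list 1 of 29 kept genes was higher and 2 lower. The 0 Gy array was the lowest of the 4 at Socs3, Id3, Hes1, Smad7 and Il10rb.

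Chemokines held genes of both directions. Of 36 measured, 12 were kept, 2 were higher and 3 lower at 1.5-fold. Ccl4 had 6.85, 7.65, 8.36 and 8.40 and Cxcl2 3.67, 5.52, 5.0 and 4.63, the lower ones being the 3 chemokines named with the stromal genes. For the TNF superfamily 20 of 43 were kept, 3 were higher and 5 lower. The decoy receptor Tnfrsf22 had 7.50, 6.67, 7.81 and 6.10, the ligand Tnfsf4, OX40L, 5.80, 6.01, 4.76 and 4.47 and the death receptor Tnfrsf10b 5.50, 5.43, 5.43 and 4.55. Tnfrsf22 and Tnfrsf10b were lowest at 0.5 Gy.

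Targets of p53 differed in both directions. Of 35 measured, 27 were kept, 4 were at least 1.5-fold higher and 3 lower, against 5.92% and 8.25% of kept genes (list median 0.02). Cdkn1a, the inhibitor p21, had 7.87, 9.68, 8.82 and 9.52 and Ppm1d, a phosphatase that ends p53 signalling, 6.29, 6.74, 6.88 and 7.40. At both, the 0 Gy array was the lowest, and Ppm1d was highest at 0.5 Gy. Trp53inp1 had 6.37, 6.78, 5.24 and 5.56 and Plk2 8.16, 8.63, 7.64 and 7.51. Bcl2 family genes showed 0 higher and 3 lower of 17 kept. All 3 encode proteins that protect cells from death: Bcl2l2 had 5.50, 4.30, 4.46 and 4.34, Bcl2l1, which encodes BCL-XL, 6.94, 6.32, 6.35 and 5.96 and Bcl2 8.93, 8.63, 8.71 and 8.15. Bcl2 and Bcl2l1 were lowest at 0.5 Gy, whereas Bcl2l2 was high on the 0 Gy array alone.

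Cell cycle genes were close to equal. All 31 mitosis and spindle genes were kept, 0 passed 1.5-fold in either direction, and the median was -0.12, or 0.11 against the mean of the other 3 arrays. The 42 replication genes, also all kept, had 0 higher and 2 lower and a median of 0.00. The 2 were Tk1, thymidine kinase, with 7.94, 7.35, 7.40 and 7.24 and Rpa3, a subunit of the single-strand binding protein, with 8.48, 7.35, 7.88 and 7.80. Both were also lower on the 0.02 and 0.1 Gy arrays than at 0 Gy. Of 19 kept G1 regulators 2 were higher and 0 lower, Cdkn1a and Cdkn2d, another inhibitor of cyclin-dependent kinases, which had 7.01, 7.28, 6.81 and 7.64. In the MYC network Mxd1, an antagonist of MYC, had 6.57, 6.88, 6.32 and 7.78 and was high at 0.5 Gy alone.

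Antioxidant genes had a list median of 0.00. Of 33 kept of 37 measured, 6 were at least 1.5-fold lower and 1 higher, against 8.25% and 5.92% of kept genes. Gstm1 had 5.97, 5.50, 6.87 and 4.37 and Gstm2, its neighbour in the genome and a close paralogue that its probes may not tell apart, 9.05, 8.72, 7.14 and 7.94. Mt1 had 10.37, 10.20, 9.47 and 9.60, Srxn1, sulfiredoxin, 6.47, 5.84, 5.49 and 5.73, and the other lower ones were Mt2, given above, and Cat, catalase. The 1 higher was Taldo1, a transaldolase of the pentose phosphate pathway, with 7.65, 7.64, 7.85 and 8.29. Gstm1 was lowest at 0.5 Gy, and the metallothioneins were low at 0.1 and 0.5 Gy.

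Genes of mitochondrial respiration differed little in size. Of 53 kept of 54 measured, 0 were higher and 1 lower at 1.5-fold, with a median of 0.03. The 0.5 Gy array was the highest of the 4 at 25 of the 53, against 20.8% of kept genes. Cox6b1, a subunit of cytochrome oxidase, differed by 0.43, and Sdhd, a subunit of succinate dehydrogenase, had 8.22, 8.22, 8.30 and 8.68. The 1 lower was Cox7b, with 5.98, 5.39, 4.42 and 4.85. For glycolysis and the citric acid cycle the 0.5 Gy array was the lowest at 17 of 38 kept genes, against 23.8% of all kept genes, with a median difference of -0.07. Aldoc, an aldolase, had 4.66, 6.25, 6.47 and 5.90, Pfkp, a phosphofructokinase, 7.49, 7.10, 7.37 and 6.60 and the lactate carrier Slc16a1 6.61, 6.30, 7.05 and 7.37.

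Of 37 translation factors measured, 35 were kept, 4 were at least 1.5-fold higher and 0 lower (list median 0.00). Eef1a1 and Eef1g, subunits of elongation factor 1, had 3.78, 5.0, 5.17 and 6.83 and 4.12, 3.87, 3.58 and 6.51. Both are among the most abundant messages of most cells, yet here they were near the filter level on the 0 Gy array, and both have many near-identical pseudogene copies that their probes may not tell apart. Pabpc1, the poly(A)-binding protein, had 11.76, 12.13, 12.13 and 12.39. Other ubiquitous genes with low values also differed, as Rps15, a ribosomal protein, with 3.75, 5.23, 4.67 and 5.72. Of the 38 kept Rpl genes, 1 was at least 2-fold higher and 1 lower, and of 31 Rps genes 2 were higher and 1 lower.

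Small RNAs differed more often than protein-coding genes, in both directions. Of 65 kept small nucleolar RNAs, 9 were at least 2-fold higher and 13 lower, 33.8% in all, and of 99 microRNA genes 8 were higher and 9 lower, 17.2%. Among 10703 protein-coding genes 142 were higher and 248 lower, 3.64%. Of 1082 olfactory receptors, 29 were kept, 0 were higher and 1 lower.

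Remaining genes among the largest differences had roles in several other processes. Tlr6, a Toll-like receptor, had 6.39, 4.96, 5.48 and 4.26 and was lowest at 0.5 Gy. Pex11a, which divides peroxisomes, had 8.41, 6.36, 7.0 and 6.26, and Rrp7a, a ribosome assembly factor, 7.16, 6.12, 7.16 and 5.02. Slc35e3 had 6.12, 5.19, 4.33 and 4.1. Upward, Tmem218 had 5.27, 7.05, 6.15 and 7.25, Bpifb5 5.75, 6.87, 6.13 and 7.73 and Tmem273 6.09, 5.26, 6.97 and 8.0, each highest at 0.5 Gy. Pemt, which makes phosphatidylcholine from phosphatidylethanolamine, had 4.1, 5.05, 4.92 and 5.81 and Pycrl, an enzyme of proline synthesis, 6.25, 7.13, 7.17 and 7.98. Pemt and Pycrl were lowest at 0 Gy and highest at 0.5 Gy, with both other doses between. Tfb2m, a mitochondrial transcription factor, had 2.90, 6.98, 3.96 and 4.99, so that its difference of 2.10 starts from a value below the filter level.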

How the data were processed

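RNA of sorted mouse long-term haematopoietic stem cells was measured on 4 Affymetrix whole-transcript arrays, 1 for each dose, after labelling per the labels' protocols. The authors deposited 1 table of log2 intensities for 25206 probe sets. That the logarithm is to base 2 was inferred from the range of the values. Partek is named, without a version, in the submitters' processing notes; background correction, normalization method and probe annotation build were not given in the sources used here, and any of them could shift dim genes.

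The deposited values were used as given. Of the probe sets, 23185 had a gene symbol in the platform annotation and 2021, which had none, were left out. Kept genes had a mean over the 4 arrays of 4.06 or more, the median gene mean. The difference was 0.5 Gy minus 0 Gy. Genes were counted at 2-fold and list members at 1.5-fold. With 1 array for each dose, no test, interval or replicate error was possible. Because intensities near the filter level are compressed, a fold at a dim gene is uncertain.

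The members and the 55 gene lists were chosen with earlier results of these data known. Named genes were those with the largest differences in each direction (with both arrays, or 1 of them, at the filter level), those at which the 0.5 or the 0 Gy array stood farthest apart, up to 6 members of a list by size of difference and any needed to describe a pathway, all sort markers and all immunoglobulin constant regions. Clone-named genes, receptors of smell and taste, small RNAs, pseudogenes and immunoglobulin segments were not named unless a list held them, apart from 2 microRNA genes among the neighbouring genes. Other members named as markers of a cell type, single genes named among families, and the neighbouring genes were chosen after their values were seen. Promoters, 250 bases before to 50 after each start, came from RefSeq, GRCm38.p6. Alternatives were 3 scalings, 2 other references, 4 filters, other folds and leaving out immunoglobulin symbols. The scripts were tested on simulated data. Python 3.11.15, pandas 2.3.3, numpy 2.4.6, statsmodels 0.14.6 and matplotlib 3.10.9 were used.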

Additional observations from a re-analysis of the deposited data

Results flagged for a closer look

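Probe sets without a gene symbol entered no count above. Of 2021 such probe sets, 935 were at or above the filter level, and 15 of these were at least 2-fold higher at 0.5 Gy than at 0 Gy, while 20 were at least 2-fold lower. Their differences ran from -2.05 to 3.70 on the log2 scale, and 3.74% of the 935 were at 2-fold or more in either direction. They were singled out because they carry signal outside the named genes; what they measure was not tested.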

How the results depend on the processing

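With 1 array for each dose, no value has a replicate error, and no paired analysis was possible because each dose has a single replicate. The counts depended on the reference, the filter and the fold. Genes at 2-fold or more higher numbered 189; recounted, they were 108 against the mean of the other 3 arrays, 124 against the mean of the 0 and 0.1 Gy arrays, 286 without a filter, 96 under the stricter filter, 686 at 1.5-fold and 58 at 3-fold. Lower genes numbered 349, and 209 against the mean of the 0 and 0.1 Gy arrays, 177 under the stricter filter, 956 at 1.5-fold and 130 at 3-fold. The other alternatives left both counts within 1.5 times. The 3 scalings shifted the median of kept genes by at most 0.04 and moved 0 of 55 list medians by more than 0.1. Of 495 list medians under all alternatives, 431 moved by no more than that, and 23, in 12 lists, changed sign. In 1 of these lists the median had passed 1.5-fold: eosinophil, basophil and mast cell genes, from 0.91 to -0.15 under the stricter filter, which leaves fewer members. Among 218 named genes, 12 changed sign with another reference and 0 with another scaling. Of those 12, 3 had passed 1.5-fold. Cd74 went from -0.71 to 0.067 against the mean of the other 3 arrays and to 0.32 against the mean of the 0 and 0.1 Gy arrays, and Cxcl2 from 0.97 to -0.10 against the former. S100a8 went from 0.99 to -0.34 against the mean of the 0 and 0.1 Gy arrays. These changes follow from the other arrays entering the reference. Genes with means of 10 or more differed least.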

Other observations

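Small nucleolar RNAs guide the chemical modification of ribosomal RNA. Of 23 kept Snora symbols, the H/ACA guides of pseudouridylation, 7 lay at least 2-fold above 0 Gy on the 0.5 Gy array and 2 below, and their median difference was 0.49. Of 41 kept Snord symbols, the C/D guides of methylation, 2 lay above and 11 below, and the median was 0.02. Among the 262 kept zinc finger genes named Zfp, 3 were higher and 14 lower. These families were counted by symbol, with 1 array a side, and a difference between them was not tested.

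Genes that lie next to each other among kept genes and differed by 2-fold or more in the same direction included the regulators of G protein signalling Rgs1, with 9.93, 10.42, 10.63 and 11.24 at 0, 0.02, 0.1 and 0.5 Gy, and Rgs2, with 8.56, 8.71, 9.11 and 9.61. Tm4sf1 had 4.68, 5.61, 3.59 and 3.57 and its neighbour Wwtr1, the coactivator TAZ, 5.42, 5.72, 4.94 and 4.38. The microRNA genes Mir17 and Mir18, of 1 cluster, had 6.60, 5.68, 4.46 and 2.86 and 6.66, 6.18, 4.21 and 3.44. These pairs were chosen after their values were seen. Rgs1 and Rgs2 were lowest on the 0 Gy array.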
